A study of Mus musculus with 4 samples.

Results

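The Ly6 genes of the chromosome 15 cluster and Plac8 were described in effector CD4 cells of the CNS and of draining lymph nodes (dLN) at EAE onset. Levels are in FPKM, the fragments read from a transcript divided by its length and by the size of the library. Of 23990 gene symbols in the FPKM tables, 9 were chosen by name: Ly6a, Ly6c1, Ly6c2, Ly6d, Ly6e, Ly6g, Ly6i, Ly6k and Plac8. They were selected with their FPKM in both tissues known, so their levels and ratios are given as a description, with no test. Ly6g was not analysed here, because no transcript carried its symbol, and 8 of the 9 genes had values. All 8 reached the minimum for testing, which was 1 FPKM as the mean of a tissue, but Ly6d and Ly6i reached it only through CNS replicate 2.

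EAE, the mouse counterpart of MS used here, follows immunization with the myelin antigen MOG, after which CD4 cells enter the CNS. CD44+CD4 effector cells of wild type C57BL/6 mice were sorted from spinal cords (the group CNS) and from pooled dLN cells (the group dLN) at disease onset, with 2 libraries per tissue. All mice of both groups were wild type and immunized with MOG. According to the Methods, PMA and ionomycin were added to the cells after sorting, whereas the labels describe fresh sorting before the RNA was taken and mention no stimulation. The labels do not say whether replicates came from separate animals, so the p-values given for other genes measure only the spread between these libraries.

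The Ly6 proteins are small cell surface proteins that share a three-finger fold and are mostly held in the membrane by a GPI anchor. In mouse T cells, Ly6a (Sca-1) and the Ly-6C proteins, made by Ly6c1 and Ly6c2, are known surface markers of activated, effector and memory cells, and several genes of the cluster are known to be induced by interferons. Ly-6C and Ly-6G are also widely used to mark monocytes and neutrophils. Plac8 lies on chromosome 5 and is no Ly6 gene; it makes a small cysteine-rich protein found in myeloid and lymphoid cells.

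The libraries held an estimated 18.5 M to 22 M fragments, read from the steps of low FPKM values. The tissues differed in more than these genes: of 10634 genes tested with limma, 37.8% were higher in CNS and 37.2% lower at a Benjamini-Hochberg adjusted p under 0.05. Between replicates, 94.7% of the genes in CNS and 96.7% in dLN lay within 1.5-fold on the log2(FPKM + 1) scale. Xist, the RNA of the silent X chromosome, had 0 and 0.0026 FPKM in CNS but 26.6 and 22.3 FPKM in dLN, and Y-linked Ddx3y was at 12.7 and 11.2 FPKM in CNS and at 0 in dLN. Sex of the mice and tissue therefore cannot be told apart. Of 9 CD4 T-cell markers, all were read in every library, with a summed level of 3202 and 3213 FPKM in CNS against 1486 and 1389 FPKM in dLN.

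Sequences are shown first for Ly6c1 and Ly6c2, because these adjacent copies are close enough for reads to be assigned to the wrong gene. Their transcripts (GENCODE M21) were identical at 97.6% of 822 aligned bases, and their coding sequences of 396 bases differed at 9. The first 120 coding bases held 6 of the 9, which are in capitals (bases counted from 1 at the start codon).
Ly6c1: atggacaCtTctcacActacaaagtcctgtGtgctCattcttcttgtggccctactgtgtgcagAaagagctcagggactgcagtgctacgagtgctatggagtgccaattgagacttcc
Ly6c2: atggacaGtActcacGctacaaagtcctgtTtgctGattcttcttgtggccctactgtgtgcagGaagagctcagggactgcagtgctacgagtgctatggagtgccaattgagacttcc
Of all stretches of 50 bases, 33.0% of the Ly6c2 transcript and 36.7% of the Ly6c1 transcript also occurred in a transcript of another gene, most of them in each other. For Ly6a this held for 91 of 906 stretches and for Ly6i for 55 of 1107, and no such stretch was found in Ly6d, Ly6e, Ly6k or Plac8. The GENCODE transcript of Ly6i has 1156 bases and the RefSeq transcript behind its FPKM 878, so its share may differ for the latter. Values of Ly6c1 and Ly6c2, and to a lesser degree of Ly6a and Ly6i, are therefore uncertain by what the authors' counting may have moved between copies.

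The upstream sequences of the pair are shown because the tables put Ly6c2 far above Ly6c1 in CNS and below it in dLN. RefSeq windows (GRCm38.p6) were held for 3 of the 8 genes with values. The 250 bases before the start site of Ly6c1 lie at chr15:75048838-75049087 and those of Ly6c2 at chr15:75111938-75112187, both on the minus strand. The RefSeq start of Ly6c2 lies 12 bases from the start site of its transcript in the tables. Capitals mark bases that differ between the aligned windows or have no partner.
Ly6c1 upstream: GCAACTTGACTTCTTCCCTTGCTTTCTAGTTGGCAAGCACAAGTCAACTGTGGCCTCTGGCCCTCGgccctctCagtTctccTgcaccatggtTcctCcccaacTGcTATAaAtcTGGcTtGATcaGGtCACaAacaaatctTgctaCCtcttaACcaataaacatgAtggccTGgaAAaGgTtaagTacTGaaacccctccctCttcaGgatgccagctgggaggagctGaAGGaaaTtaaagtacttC
Ly6c2 upstream: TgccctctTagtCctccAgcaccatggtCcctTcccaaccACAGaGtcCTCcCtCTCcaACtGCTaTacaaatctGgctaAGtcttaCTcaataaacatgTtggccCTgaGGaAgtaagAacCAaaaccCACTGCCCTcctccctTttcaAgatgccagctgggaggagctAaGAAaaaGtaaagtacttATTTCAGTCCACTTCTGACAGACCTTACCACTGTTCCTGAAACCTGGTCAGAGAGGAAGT
Of 182 aligned bases, 136 were identical (74.7%), and 68 bases of each window had no partner, since the annotated starts do not lie at the same place of the shared stretch. The windows were searched on both strands for GAS (TTCNNNGAA) and an ISRE core (GAAANNGAA), bound by interferon-activated factors, for a T-box element (AGGTGTGA) and for AP-1 (TGANTCA). None of the 4 was found in the Ly6c1 or Ly6c2 window, which says only that these letters are not there. The Plac8 window, chr5:100572206-100572455 on the minus strand, held 1 T-box match (capitals), which begins 249 bases before the start site.
Plac8 upstream: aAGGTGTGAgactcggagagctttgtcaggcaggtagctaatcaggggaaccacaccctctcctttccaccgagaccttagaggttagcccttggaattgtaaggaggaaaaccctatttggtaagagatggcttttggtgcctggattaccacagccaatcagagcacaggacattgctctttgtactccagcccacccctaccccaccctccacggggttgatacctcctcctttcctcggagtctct
Of 32817 RefSeq windows of the same length, 1.1% held the T-box letters, 7.0% GAS, 7.1% the ISRE core and 6.8% AP-1.

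Ly6a and Ly6e were the most abundant of the genes in both tissues. Ly6a (chr15:74994877-74998031, mm10), the stem cell antigen Sca-1, had 1132 and 1087 FPKM in CNS, against 297.1 and 200.8 FPKM in dLN. The CNS libraries lay above both dLN libraries, and the mean was 4.46-fold higher (1110 ± 31.7 against 249 ± 68.1 FPKM, SD, n = 2 each), a log2 ratio of 2.18 ± 0.19 (SE) on the log2(FPKM + 1) scale. In bulk RNA, fewer cells expressing a gene and less RNA per cell cannot be told apart, here and for the genes that follow. Ly6e (chr15:74955051-74959905), known for its effect on the entry of viruses into cells, was at 735.8 and 766.8 FPKM in CNS and at 94.96 and 66.54 FPKM in dLN. Its mean was 9.30-fold higher in CNS (log2 ratio 3.22 ± 0.18), so the gene that ranked second in level had the larger ratio. The level of Ly6a was 1.54 and 1.42 times that of Ly6e in the CNS libraries and 3.13 and 3.02 times in the dLN libraries. In dLN, Ly6a and Ly6e were thus still clearly read, and both were among the 1169 highest of all gene symbols in each dLN library, whereas Plac8 ranked 5868 and 9213.

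**Figure D1:**
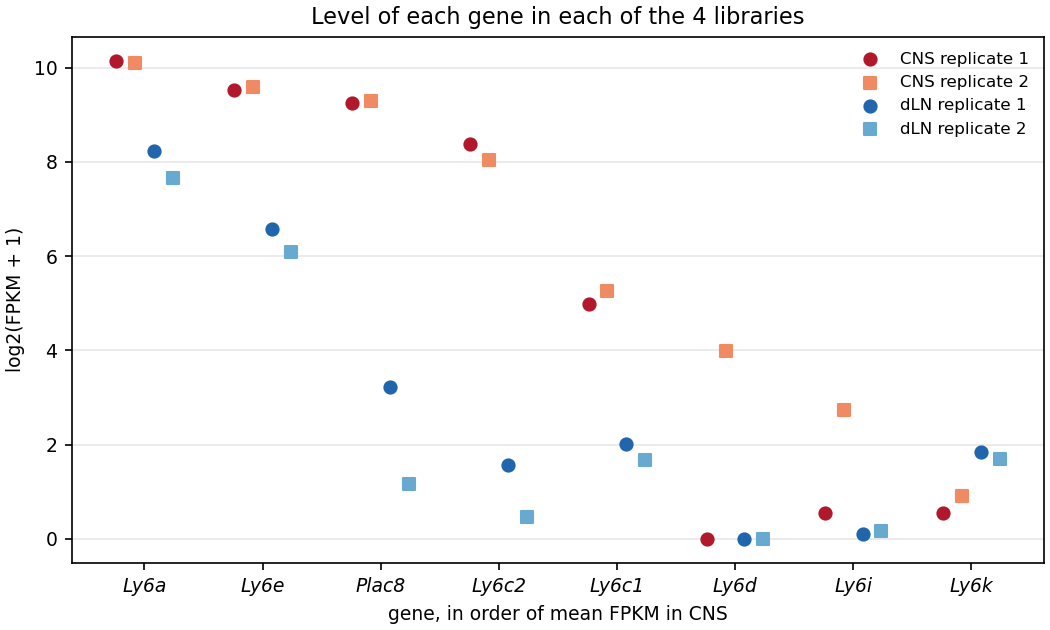
Level of each gene, as log2(FPKM + 1) on the vertical axis, in order of its mean FPKM in CNS, with 1 point per library (red and orange, CNS; blue, dLN; circles, replicate 1; squares, replicate 2). Ly6a, Ly6e, Plac8, Ly6c2 and Ly6c1 lie apart by tissue, Ly6d and Ly6i rise above the rest in CNS replicate 2, and Ly6k lies higher in dLN.

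Ly6c2 and Plac8 had the widest gap between the tissues among the members. Ly6c2 (chr15:75108161-75111949) was at 330.7 and 263.5 FPKM in CNS, from an estimated 4499 and 3464 fragments. In dLN it was at 1.965 and 0.3794 FPKM, from an estimated 22.2 and 5.1 fragments. The mean in CNS was 253-fold that in dLN (log2 ratio 7.19 ± 0.38), and the small number of dLN fragments leaves the fold less certain than its sign. Plac8 (chr5:100553733-100572205) was at 610.9 and 625.5 FPKM in CNS and at 8.389 and 1.239 FPKM in dLN, the latter from an estimated 78.5 and 13.9 fragments. Its CNS replicates were alike and its dLN replicates were not. The mean was 128-fold higher in CNS (log2 ratio 7.08 ± 0.67), and without dLN replicate 2 the log2 ratio was 6.04.

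Ly6c1 (chr15:75044018-75048837), the neighbour and close copy of Ly6c2, was at 30.65 and 37.15 FPKM in CNS and at 3.057 and 2.174 FPKM in dLN. The groups did not overlap, and the mean was 12.96-fold higher in CNS (log2 ratio 3.28 ± 0.17). The level of Ly6c2 was 10.8 and 7.09 times that of Ly6c1 in the CNS libraries, but 0.643 and 0.175 times in the dLN libraries. The order of the copies was thus opposite in the tissues in all 4 libraries, as the tables assigned their reads, and how far shared sequence moved reads between them was not tested.

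Ly6d and Ly6i were read mainly in 1 library. Ly6d (chr15:74762056-74763567), a gene known from B-lineage and plasmacytoid cells, reached 14.76 FPKM in CNS replicate 2, from an estimated 158.9 fragments, and listed at 0 in the other 3 libraries. Against a floor of 3 fragments per dLN library (0.297 FPKM), CNS replicate 2 was at least 49.8-fold higher. CNS replicate 1, at 0, resembled dLN, so tissue did not separate this gene. Ly6i (chr15:74979812-74983430), known from macrophages, was at 0.4597 and 5.697 FPKM in CNS and at 0.07816 and 0.1305 FPKM in dLN, from 7 and 84.4 against 1 and 2 estimated fragments. Against the same floor of 3 fragments (0.216 FPKM), CNS replicate 2 was at least 26.4-fold higher and CNS replicate 1 at least 2.13-fold higher. The CNS replicates of Ly6i differed 12.4-fold from each other.

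Ly6k (chr15:74796874-74799968), known mainly from the testis, was the exception in direction. It was at 0.4604 and 0.8764 FPKM in CNS and at 2.582 and 2.231 FPKM in dLN, from 6 and 11 against an estimated 27.8 and 28.9 fragments. Both dLN libraries lay above both CNS libraries, and the mean was 3.60-fold higher in dLN (log2 ratio -1.04 ± 0.18).

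In the order of FPKM, which is a level per transcript length, the CNS libraries gave Ly6a, Ly6e, Plac8, Ly6c2 and Ly6c1, each apart from the next by more than its replicates spread, followed by Ly6d, Ly6i and Ly6k, which overlapped. In dLN the order by mean was Ly6a, Ly6e, Plac8, Ly6c1, Ly6k, Ly6c2, Ly6i and Ly6d. There Plac8 overlapped Ly6c1, Ly6k and Ly6c2, and Ly6c1 overlapped Ly6k. Ly6c2 moved from the fourth place in CNS to the sixth in dLN. Across the 8 genes, 7 had a log2 ratio of at least 1, as had 22.0% of all genes tested, and in 6 both CNS libraries lay above both dLN libraries, as in 45.7% of all genes. Both counts come from the contrast in which the genes were chosen, and nothing is read from them. Together the 7 genes of the cluster made up 0.387% and 0.360% of all FPKM in CNS and 0.0776% and 0.0531% in dLN.

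Along the chromosome, the genes with values spanned 350 kb. The 5 from Ly6e to Ly6c2 followed each other with no other listed gene between them. All 5 had a higher mean in CNS, that of Ly6i mainly through CNS replicate 2. In each, both CNS libraries lay above both dLN libraries, as in 45.7% of all genes tested. The 5 were chosen with these values known. Between Ly6k and Ly6e, Gml, Hemt1, Cyp11b1 and Cyp11b2 were listed at 0 in all libraries, and none of the 6 other genes between the outermost members reached the minimum for testing. Within 500 kb of the cluster, 3 of 21 other genes were tested, 0 were higher in CNS and 1 was lower by limma. That gene, Jrk, was at 0.169 and 0.371 FPKM in CNS and at 3.32 and 3.41 FPKM in dLN (log2 ratio -1.79 ± 0.15, adjusted p = 0.000411), and is named after its values were seen. Arc and Them6, the other 2 tested, had log2 ratios of 0.07 and 0.07 (adjusted p = 0.808 and 0.525). Ly6f, which lies 156 kb beyond Ly6c2, was listed at 0 in all libraries.

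**Figure D2:**
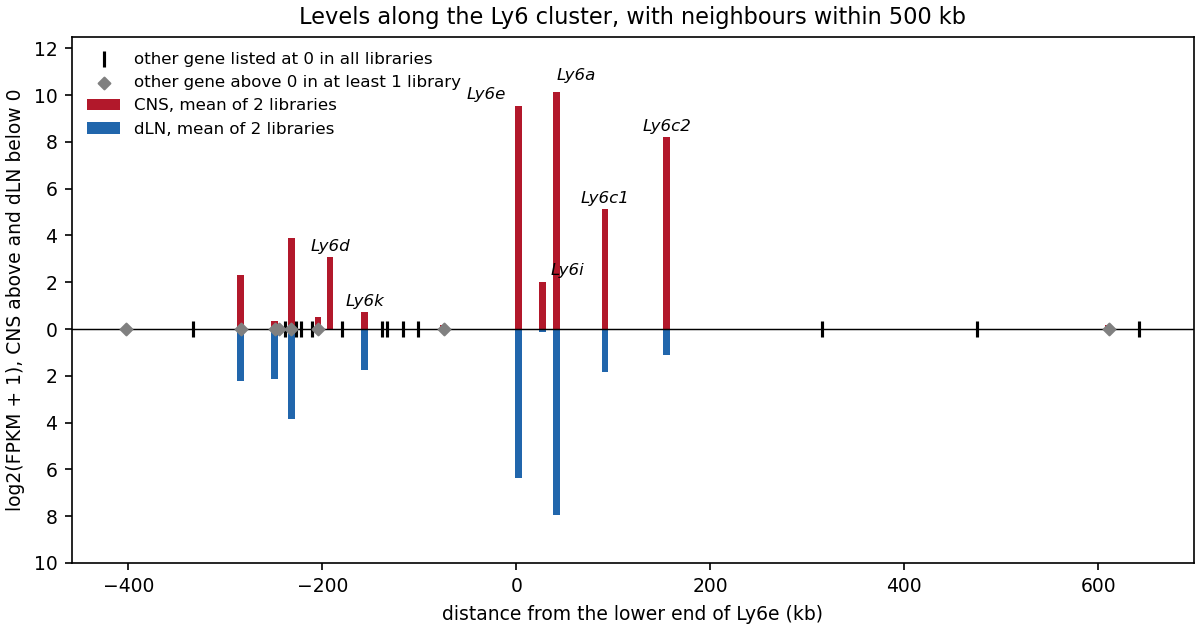
Mean log2(FPKM + 1) of each gene along the Ly6 cluster, CNS upwards in red and dLN downwards in blue, against the distance from the lower end of Ly6e in kb. Ticks mark other genes listed at 0 in all 4 libraries and diamonds other genes above 0 in at least 1 library; the CNS bars exceed the dLN bars from Ly6e to Ly6c2, while Ly6k has the longer bar in dLN.

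Around Plac8, 11 of 14 other genes within 500 kb were tested, of which limma called 2 higher and 6 lower in CNS. The nearest, Cops4, a subunit of the COP9 signalosome 5.9 kb away, was at 28.1 and 25.7 FPKM in CNS and at 42.6 and 37.6 FPKM in dLN (log2 ratio -0.55 ± 0.10, adjusted p = 0.00648). Coq2, an enzyme of ubiquinone synthesis, was also lower (log2 ratio -1.21 ± 0.09, adjusted p = 0.000311), as were 5430416N02Rik, Sec31a and Enoph1 (-1.24, -0.57 and -0.60, adjusted p = 0.00602, 0.00208 and 0.00993). Mrps18c, a mitochondrial ribosomal protein gene, was higher by 0.38 ± 0.11 on the log2 scale (adjusted p = 0.0242). The largest log2 ratio of a tested neighbour was 1.22, against 7.08 for Plac8. Plac8l1 and Cnfn, which share its protein domain, were listed at 0 in all libraries.

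Ly6a, Ly6e and Ly6c1 were listed with several RefSeq transcripts, and for each of them the same transcript led in all 4 libraries. The Ly6a transcript of 956 bases held 80.2% and 79.4% of the gene's FPKM in CNS and 77.1% and 79.7% in dLN. The Ly6e transcripts of 2070 and 2067 bases held 64.6% and 32.3% in CNS replicate 1, and 62.8% and 28.2% in dLN replicate 1. The Ly6e transcript of 1864 bases held 1.70% and 1.38% in CNS and 6.61% and 7.82% in dLN. For Ly6c1, the transcript of 849 bases held 76.8% and 86.1% in CNS and 50.7% and 42.6% in dLN, and that of 707 bases, which has a start site of its own, held 7.44% and 5.51% in CNS and 30.6% and 28.6% in dLN. The Ly6c1 shares in dLN rest on an estimated 35 and 30 fragments in all, and the transcripts overlap almost fully, so the split is an estimate of the authors' program.

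**Figure D3:**
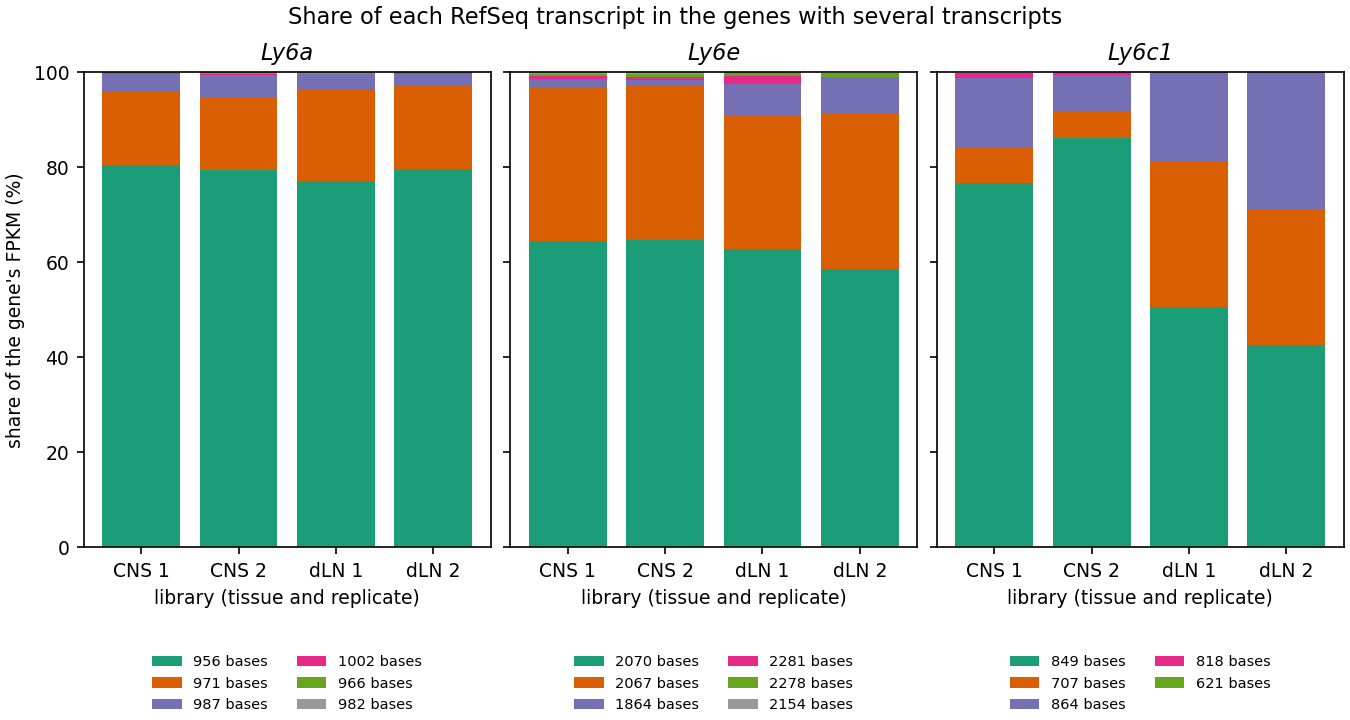
Share of a gene's FPKM (vertical axis, percent) in each RefSeq transcript of Ly6a, Ly6e and Ly6c1, named by length, with 1 stacked bar per library. The bars of Ly6a and Ly6e look alike in all libraries, whereas the 849-base transcript of Ly6c1 holds 76.8% and 86.1% in CNS and 50.7% and 42.6% in dLN.

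Replicates of a tissue did not vary alike in all genes. In CNS, the ratio of replicate 2 to replicate 1 was 0.960 for Ly6a, 1.04 for Ly6e, 0.797 for Ly6c2, 1.21 for Ly6c1 and 1.02 for Plac8. Against these 5, Ly6d and Ly6i were at or near 0 in replicate 1 and higher in replicate 2. In the same 2 libraries, 12 neutrophil markers had a summed level of 3.15 and 231 FPKM, and 16 monocyte and macrophage markers one of 26.7 and 252 FPKM. Of these, 11 and 15 genes were higher in replicate 2. S100a8, a defining neutrophil gene, had 0 and 101 FPKM in CNS replicates 1 and 2, and Siglech, which marks plasmacytoid cells and microglia, was at 0.0852 and 5.10 FPKM. The part of other cells in the Ly6d and Ly6i values was not tested. Ly6c2 and Plac8, also known from monocytes, had 330.7 and 610.9 FPKM in CNS replicate 1 and 263.5 and 625.5 FPKM in replicate 2. FPKM of different genes does not measure the share of cells, and the part of monocytes in Ly6c2 and Plac8 was not tested.

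**Figure D4:**
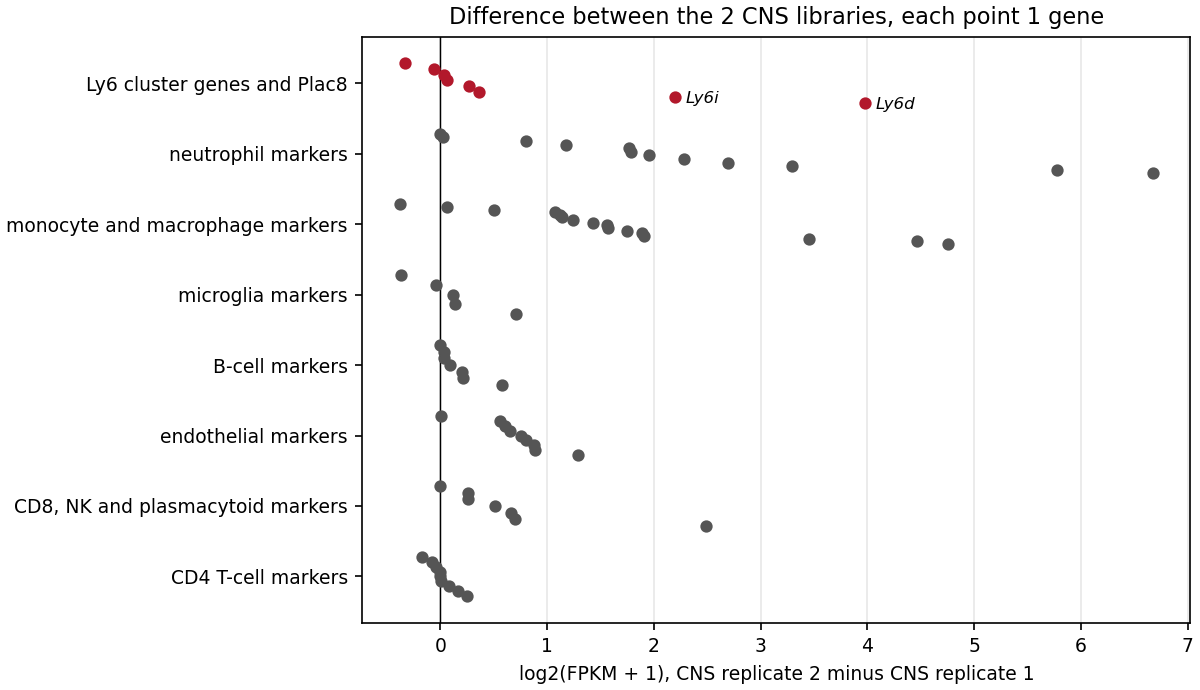
Difference in log2(FPKM + 1) between CNS replicate 2 and CNS replicate 1 (horizontal axis) for the 8 genes in red and for cell type markers in grey, 1 point per gene. Ly6d and Ly6i lie to the right with most neutrophil and monocyte markers, and the other 6 lie near 0 with the CD4 T-cell markers.

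The summed markers of neutrophils, of monocytes and macrophages, of B cells, of endothelial cells and of CD8, NK and plasmacytoid cells were lower in both dLN libraries than in both CNS libraries. In dLN, 7 of 12 neutrophil and 9 of 16 monocyte and macrophage markers were listed at 0 in both libraries, with Elane at 0 in all 4 libraries, and their sums were 0.262 and 0.273 FPKM and 4.49 and 4.09 FPKM. Of the neutrophil markers tested, 1 of 9 was called, Mmp9, a matrix protease (log2 ratio 1.71 ± 0.40, adjusted p = 0.0139). Of 13 monocyte and macrophage markers tested, 7 were higher in CNS, led by Lyz2 (4.27 ± 1.45, adjusted p = 0.0452) and C1qb (2.97 ± 0.52, adjusted p = 0.00492). Of the microglia markers, Gpr34 was at 11.5 and 8.65 FPKM in CNS and at 0.0315 and 0.159 FPKM in dLN and was higher in CNS (log2 ratio 3.33 ± 0.17, adjusted p = 0.000127), but P2ry12 (0.437 and 0.58 FPKM), Tmem119 (0.198 and 0.954 FPKM) and Sall1 (0.0375 and 0.127 FPKM) were too low in CNS to be tested, and Tmem119 and Sall1 were at 0 in dLN. B-cell markers summed to at most 2.50 FPKM in any library, with Pax5 at 0 in all 4, and 1 of 1 tested, Cd79b, was higher in CNS (0.94 ± 0.16, adjusted p = 0.00462). Endothelial markers summed to 5.88 and 16.3 FPKM in CNS and 3.11 and 2.42 FPKM in dLN, and 4 of 5 tested were higher, led by Cldn5 and Emcn (log2 ratios 1.67 ± 0.32 and 1.59 ± 0.30). Markers of CD8, NK and plasmacytoid cells summed to 6.51 and 14.9 FPKM in CNS and 3.50 and 3.40 FPKM in dLN, with Klra1 at 0 in all libraries, and 1 of 3 tested was higher, Klrb1c (1.92 ± 0.16, adjusted p = 0.000432). How much these cells added to Ly6a, Ly6e, Ly6c1, Ly6c2 or Plac8 was not tested.

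In dLN the replicates differed most in Plac8 and Ly6c2, the genes with the largest ratios between tissues. Replicate 1 was 6.77-fold above replicate 2 for Plac8 and 5.18-fold for Ly6c2, against 1.48-fold for Ly6a, 1.43-fold for Ly6e and 1.41-fold for Ly6c1. All 5 were higher in replicate 1, as was Ly6k (1.16-fold), whereas Ly6i was not and Ly6d was at 0 in both. The share of all genes higher in replicate 1 was not counted, so this direction is not read as a trait of the members. Of 17 effector and memory CD4 genes, 13 were also higher in dLN replicate 1. The median difference of the 17 was 0.27 on the log2 scale, against 0.05 over all genes tested. Also higher there were 10 of 12 interferon receptor and signalling genes, 11 of 12 interferon-induced genes and 8 of 9 CD4 T-cell markers, but only 4 of 15 stimulation-induced genes. The neutrophil marker sums (0.262 and 0.273 FPKM) and monocyte marker sums (4.49 and 4.09 FPKM) of the dLN libraries were low, so nothing is read from their likeness. How any of these lists relates to the members' difference was not tested.

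Apart from the members, the family was mostly at or near 0. Of 31 other Ly6/uPAR genes in the tables, some of them in the cluster, 15 were listed at 0 in all libraries and 3 were tested, of which limma called 2 higher and 0 lower in CNS. Ly6g5b, a Ly6 gene of the MHC region on chromosome 17, was at 49.2 and 41.1 FPKM in CNS and at 4.05 and 2.24 FPKM in dLN (log2 ratio 3.51 ± 0.24, adjusted p = 0.000242), close to the ratio of Ly6c1 and Ly6e. Lypd6b was at 1.14 and 1.1 FPKM in CNS and at 0 and 0.0431 FPKM in dLN (log2 ratio 1.06 ± 0.16, adjusted p = 0.00274). Plaur, the urokinase receptor, was not called (log2 ratio 0.07 ± 0.82) and had 0.537 and 7.71 FPKM in the CNS libraries and 2.23 and 2.77 FPKM in dLN. Its direction rested on the CNS library kept: limma called it higher without CNS replicate 1 (1.32 ± 0.15, adjusted p = 0.0127) and lower without CNS replicate 2 (-1.18 ± 0.14, adjusted p = 0.0121).

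The genes that build, attach and remodel the GPI anchor went both ways. Of 28 tested, limma called 10 higher and 9 lower in CNS, shares close to those of all genes, with a median log2 ratio of 0.10 against 0.05. Pigp, a subunit of the enzyme that starts anchor synthesis, was at 13.7 and 12.8 FPKM in CNS and at 1.20 and 2.21 FPKM in dLN (log2 ratio 2.42 ± 0.20, adjusted p = 0.000425), and Mppe1, which trims the anchor, was also higher (1.40 ± 0.09, adjusted p = 0.000222). Pigw, which acylates inositol, was lower (-2.03 ± 0.10, adjusted p = 0.000128), as was the mannosyltransferase gene Pigm (-1.30 ± 0.11, adjusted p = 0.000476).

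Interferon genes were mostly higher in CNS. Of 12 receptor and signalling genes, limma called 10 higher and 1 lower (median log2 ratio 1.56). Of 12 interferon-induced genes, it called 11 higher and 1 lower (median 2.30). Over all genes tested, 37.8% were higher and 37.2% lower, with a median of 0.05. Both lists were chosen with earlier results of these data known, and the part of interferons in the members' levels was not tested. Ifngr1, a chain of the interferon gamma receptor, was at 497 and 471 FPKM in CNS and at 14.7 and 11 FPKM in dLN (log2 ratio 5.14 ± 0.15, adjusted p = 8.12e-05), and Irf7, a transcription factor of the type I response, rose by 4.82 ± 0.14 (adjusted p = 8.12e-05). Jak2, a kinase of the same receptor, was lower, at 29.4 and 31.6 FPKM in CNS against 191 and 214 FPKM in dLN (-2.69 ± 0.10, adjusted p = 8.95e-05). Ifit3 and Ifit1, antiviral genes, had log2 ratios of 5.25 ± 0.13 and 4.87 ± 0.12 (both adjusted p = 8.12e-05), and Socs1, an inhibitor of the pathway, was lower by limma (-0.39 ± 0.11, adjusted p = 0.0247).

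**Figure D5:**
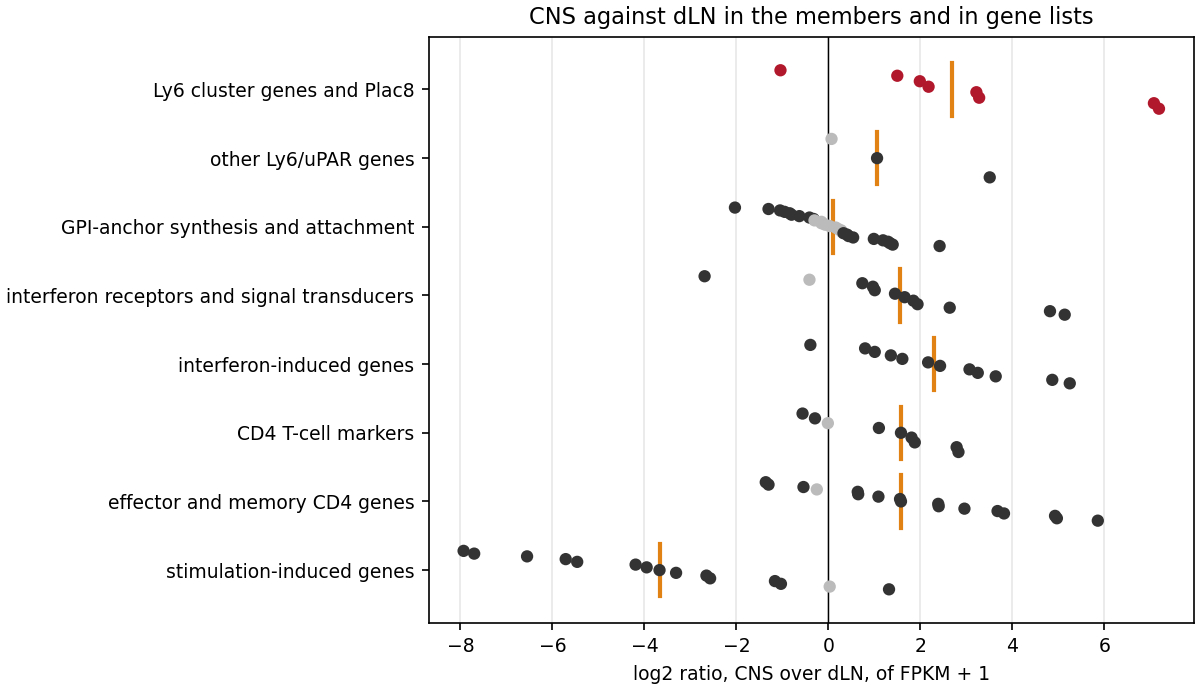
Log2 ratio of FPKM + 1, CNS over dLN (horizontal axis), for the 8 members in red and for the tested genes of 7 lists, where black marks genes called by limma, grey genes not called, and an orange bar the median. Ly6c2 and Plac8 lie at 7.19 and 7.08, right of every gene of the lists, and Ly6k alone of the members lies left of 0.

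T-cell state genes also differed between the tissues. Of 9 CD4 T-cell markers, 6 were higher and 2 lower in CNS. Cd4 and Cd3g rose (log2 ratios 2.79 ± 0.12, adjusted p = 9.45e-05, and 2.83 ± 0.14, adjusted p = 0.000122), while Cd44, used for the sort, and Cd5 were lower (-0.56 ± 0.09, adjusted p = 0.00337, and -0.29 ± 0.09, adjusted p = 0.0353). Of 17 effector and memory genes, 13 were higher and 3 lower (median 1.58). Klf2 and S1pr1, which keep T cells circulating, rose by 5.86 ± 0.12 and 4.97 ± 0.16 (both adjusted p = 8.12e-05), and Ccr7 and Cxcr5, homing receptors of lymphoid tissue, were lower (-1.30 ± 0.40, adjusted p = 0.0331, and -1.36 ± 0.12, adjusted p = 0.000458). Of 15 genes induced by stimulation of T cells, 13 were lower in CNS and 1, Cd69, was higher (1.32 ± 0.10, adjusted p = 0.000321), with a median of -3.67. Il2 was at 18.2 and 38.8 FPKM in CNS and at 5363 and 6176 FPKM in dLN (-7.70 ± 0.35, adjusted p = 0.000101), and Il4 was at 0 and 0.225 FPKM in CNS against 266 and 273 FPKM in dLN (-7.93 ± 0.13, adjusted p = 8.12e-05). In the same libraries, most stimulation markers were lower in CNS. Klf2, Ly6a, Ly6e, Ly6c1, Ly6c2, Ly6i and Plac8 were higher in both CNS libraries than in both dLN libraries, and Ly6k was lower. Both CNS libraries lay above both dLN libraries in 45.7% of all genes tested. Since most stimulation markers followed the split by tissue, the part of stimulation in the members' differences cannot be told apart from tissue and was not tested.

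The genes most like Ly6a, Ly6c2 and Plac8 were sought among the 6410 genes that averaged 10 FPKM or more in one tissue, by the root mean square difference of centred log2(FPKM + 1) over the 4 libraries. This likeness is a description over 4 libraries that share tissue. For Ly6a the closest were Galnt12, Fam111a, Tmem254b, Prkd2 and Rinl, with differences of 0.041 to 0.055 against a median of 1.17 over all genes searched. For Ly6c2 they were Ctsw (0.301), a protease of cytotoxic lymphocytes, Ccl5 (0.307), a chemokine, Plac8 (0.369), the small nucleolar RNA Snora30 (0.544) and the heat shock gene Hspa1a (0.649). For Plac8 they were Ly6c2 (0.369), Ctsw (0.462), Ccl5 (0.649), Ifitm1 (0.780) and AA467197 (0.797). The median difference over all genes searched was 3.67 for Ly6c2 and 3.66 for Plac8. Plac8 and Ly6c2 were in each other's lists. Both were chosen with their ratios known, and the measure depends on the ratio between tissues, so nothing is read from this. Ctsw was at 416 and 423 FPKM in CNS against 4.65 and 2.03 FPKM in dLN. Ccl5 was at 1269 and 1019 FPKM in CNS and at 5.98 and 4.31 FPKM in dLN. Hspa1a, which is known to respond to stress of cells, was at 1367 and 2082 FPKM in CNS and at 5.69 and 3.76 FPKM in dLN.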

How the data were processed

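RNA of CD44+CD4 cells was measured in 4 libraries, 2 per tissue. The authors deposited FPKM (fragments divided by transcript length and library size) for 33819 RefSeq transcripts of mouse build mm10. The aligner and the program that computed FPKM are not given in the sources used here. The CNS table names both libraries in 1 header cell, and its value columns were taken in that order. FPKM was summed by gene symbol, and 565 transcripts without a symbol were left out.

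Genes averaging 1 FPKM or more in one tissue were tested with limma 3.58.1 (R 4.3.3, eBayes with trend) on log2(FPKM + 1), which understates changes of low genes, with tissue as the term and Benjamini-Hochberg adjustment at 0.05. On simulated data, limma recovered 58 of 100 genes changed by 1 on the log2 scale and 95 of 100 changed by 3. It also called 7 unchanged genes. Far fewer genes were changed there than were called in the data. The depth estimate was off by at most 0.124% on simulated libraries. The smallest two-sided p of an exact permutation test with 2 libraries per tissue is 0.333. Fragments were estimated from the steps of FPKM, where 92% to 94.2% of values fell within 0.1 of a whole number (20% by chance), and intervals for counting error were not formed. Across genes, the difference between replicates in one tissue correlated with that in the other at 0.0933, which cannot show whether equal numbers were pairs. Xist and Ddx3y were opposite in the tissues, so libraries of equal number were not from the same mice. Equal numbers were not taken as pairs. Sequences came from RefSeq (GRCm38.p6) and GENCODE M21.

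Named were all members, the 2 called genes with the largest ratio in each direction of a list, defining markers at 0, called neighbours with a mean of at least 10 FPKM (up to 6 per locus), and the 5 genes most like Ly6a, Ly6c2 and Plac8. Others are named beside the result they belong to. The result of 1 marker gene is not reported here. The members and lists were chosen with earlier results of these data known. Alternatives covered pseudocount, filter, scaling, variance model, highest transcript, replicate block and leaving out each library.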

Additional observations from a re-analysis of the deposited data

How the results depend on the processing

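Over 101 recalculations of the members' log2 ratios, 90 stayed within 1 SD of the libraries, 11 moved further and 0 reversed. With 2 libraries per tissue, leaving out 1 cannot move a ratio past that SD except by rounding. Filter, variance model and replicate block cannot change the ratio itself. The count within 1 SD is therefore no measure of stability. Leaving out 1 library gave ranges of 1.90 to 2.46 for Ly6a, 2.97 to 3.48 for Ly6e, 3.10 to 3.45 for Ly6c1, 6.64 to 7.75 for Ly6c2, 6.04 to 8.11 for Plac8, -1.22 to -0.86 for Ly6k, 0.40 to 2.60 for Ly6i and 0 to 3.98 for Ly6d. Of the members, 7 were at least 2-fold higher in CNS, and 5 without CNS replicate 2, on which Ly6d and Ly6i rest. Calls higher in CNS were 50.4% of all calls, 43.1% with each library scaled to the same sum (which moved the median of all genes by -0.17) and 55.6% with the same upper quartile (moved by 0.12). GPI-anchor genes called numbered 19, and 12 to 15 when 1 library was left out, the lowest without dLN replicate 2. Other Ly6/uPAR genes called numbered 2, and 1 with a mean of at least 1 FPKM required in both tissues, where Lypd6b was no longer tested; 3 were called when either CNS replicate was left out, the third being Plaur, higher without replicate 1 and lower without replicate 2. With the replicate block, 7828 genes were called against 7968 without it, and the counts of members, neighbours, GPI-anchor, other Ly6/uPAR and interferon signalling genes stayed within 1.5 times. The other lists were not recalculated under the alternatives. Few fragments limit the dLN values of Ly6c2, Ly6c1 and Plac8 and all values of Ly6k. With 2 libraries per tissue, tissue, table, sex-linked transcripts and most stimulation-induced genes follow the same split.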
